A study of Arabidopsis thaliana with 6 samples.

Results

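Ribosome biogenesis factors are the proteins that build ribosomes in the nucleolus, and the 36 genes described here encode such factors in Arabidopsis thaliana. They were taken by their gene codes from a list of nucleolar proteins and of factors for ribosomal RNA processing, ribosome assembly and ribosome export, out of 32313 gene codes counted by RNA-seq. The list was chosen with earlier results of these data known. All 36 were in the table and all 36 passed the filter on low counts. Libraries came from whole seedlings of line BP12-2, described as a knockdown line for the TOR kinase, and of the Columbia wild type (WT), with 3 libraries each. Both groups were 15 days old after germination and were then moved for 3 days from medium of 0.5 MS strength to the same medium with 10 µg/ml rapamycin, so WT also received the drug. BP12 lines carry the yeast FKBP12 protein, through which rapamycin can bind the plant TOR kinase. Only 1 such line was used, seedlings on the solvent medium were not analysed here, and a difference present in BP12-2 without rapamycin cannot be told apart from one that rapamycin caused. Whether the 3 libraries of a group were grown separately is not stated, and p-values therefore reflect only the spread among these libraries, possibly technical.

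Ribosomes are made from a long precursor RNA that is transcribed in the nucleolus, chemically modified by small nucleolar ribonucleoproteins (snoRNPs), cut at defined sites and bound by ribosomal proteins. One branch of this pathway gives the small subunit, through a large particle built around the U3 snoRNA, and the other gives the large subunit, which is finished in the cytoplasm by export and release factors. TOR is known across eukaryotes to promote ribosome production in step with nutrient supply, and plants that lack single assembly factors often arrest as gametophytes or embryos. By their known roles, 11 of the 36 genes act in the small subunit branch, 13 in the large subunit branch, 8 are nucleolins or core snoRNP proteins, and 4 act on both branches or in other steps.

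Total counts ran from 6706610 to 17092773 per BP12-2 library and from 7611017 to 16371859 per WT library. Levels are CPM (counts scaled to library size), adjusted by the TMM method of edgeR. Column names also carry a code that differs between the groups and whose meaning is not given, so what it stands for cannot be told apart from genotype. The TOR transcript itself was at 32.4, 27.8 and 32.6 CPM in BP12-2 and at 34.3, 35.9 and 38.5 CPM in WT (log2 fold change -0.22 ± 0.10, SE; edgeR quasi-likelihood adjusted p = 0.292). Leaf markers (7 of 7) and root markers (8 of 8) were present in every library, while the seed storage genes SESA1 and SESA3 were at 0 in all 6 and 5 of 8 flower and seed markers stayed under 1 CPM. Summed leaf markers were at 44936 to 47345 CPM in BP12-2 and 34891 to 37754 CPM in WT. Summed root markers were at 406 to 479 CPM in BP12-2 and 268 to 372 CPM in WT. Of the root sum, PRP3 alone averaged 212 CPM in BP12-2 and 120 CPM in WT. Log2 fold changes were negative for 2 of the 8 root markers (PLT1 -0.11, MYB36 -0.23) and for 0 of the 7 leaf markers. Groups did not overlap for the root markers EXPA7 and PRP3 or for the leaf marker RBCS3B. They overlapped for every other root and leaf marker. The 14 markers of dividing cells summed to 182 to 226 CPM in BP12-2 and 182 to 194 CPM in WT, and 11 of the 14 had positive log2 fold changes. The part of these tissue markers in the results below was not tested. In whole seedlings, fewer cells of a type and less RNA per cell cannot be told apart.

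In several circadian clock transcripts, BP12-2 replicate 1 and WT replicate 3 were unlike the remaining 4 libraries. The clock gene LHY was at 23.2 CPM in BP12-2 replicate 1 and 27.0 CPM in WT replicate 3, and between 140 and 193 CPM elsewhere, while PRR5 was at 26.2 and 37.5 CPM in these libraries and between 2.01 and 3.16 CPM elsewhere. CCA1 differed less than LHY, at 124 and 102 CPM in these libraries and between 154 and 241 CPM elsewhere. PRR9 did not set them apart, at 43.3 and 49.2 CPM against 42.6 to 52.7 CPM elsewhere. The 8 clock genes summed to 649 to 665 CPM in BP12-2 and 551 to 665 CPM in WT. Opposite differences, such as those of LHY and PRR5, offset each other in this sum. Class medians and a number of single genes are also given without BP12-2 replicate 1 and WT replicate 3. The part of the clock state in these values was not tested.

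Assembly factor transcripts had slightly lower levels in BP12-2 than in WT for nearly every gene, and none of the single genes passed the test. Of the 36 genes, 35 had a negative log2 fold change, with a median of -0.29 and a range from -0.63 to 0.09, so the median factor was at 0.820 times its WT level. Over all 19436 tested genes the median was 0.01 and 49.2% were negative. With the edgeR quasi-likelihood test 0 of the 36 passed an adjusted p of 0.05, where 0.0669% of all tested genes passed (0.0617% lower and 0.00515% higher). At an unadjusted p under 0.05, 15 were lower and 0 were higher, against 9.2% and 9.03% of all genes. By DESeq2 1 gene passed (TOZ) and by the edgeR exact test 2 passed (TOZ and AT1G52930), both lower in BP12-2. Of all genes 1.73% were lower and 1.46% higher by DESeq2, and 2.25% were lower and 1.98% higher by the exact test. In 19 of the 36 genes every BP12-2 library was below every WT library, and in 0 every one was above, against 12.2% and 12.1% of all genes.

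**Figure D1:**
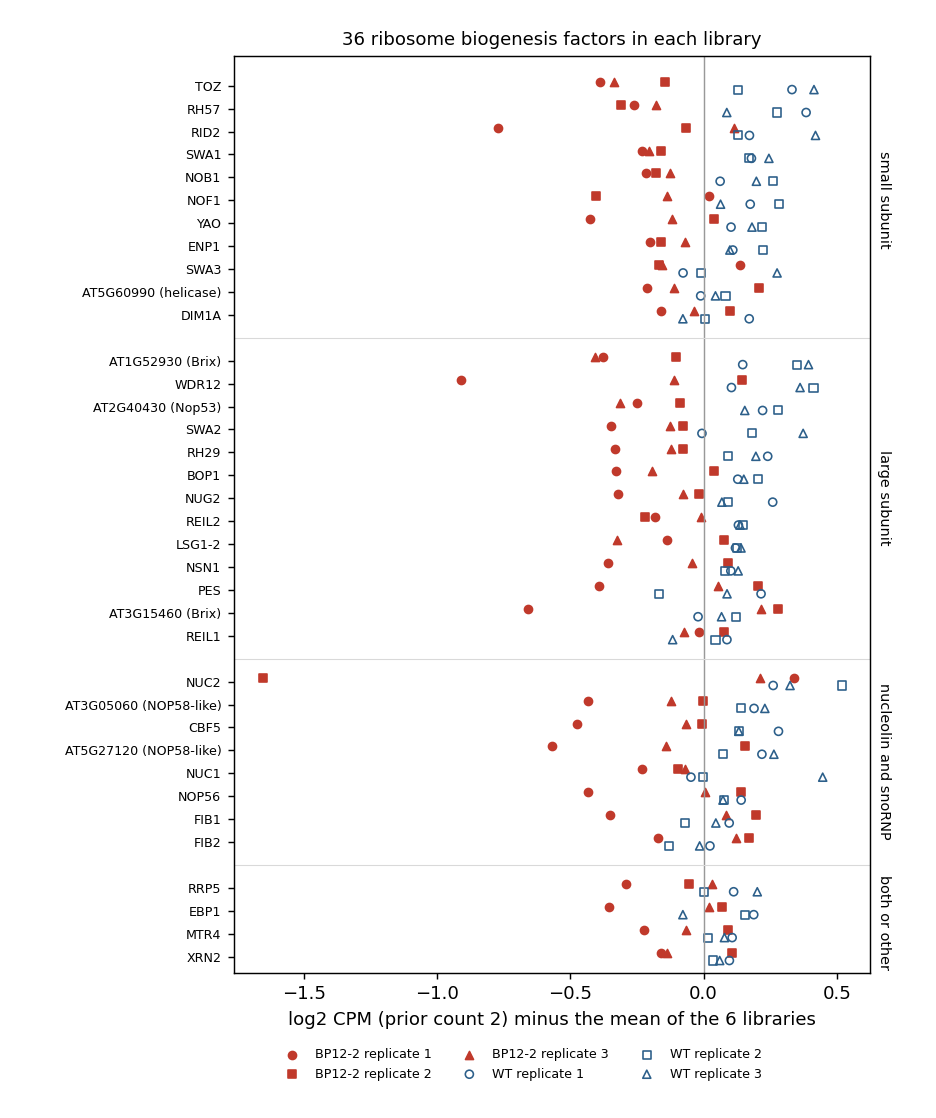
Level of each of the 36 genes in each library, as log2 CPM minus the gene's mean over the 6 libraries (x axis), by role class (y axis), with filled symbols for BP12-2 and open symbols for WT. BP12-2 replicate 1 (filled circle) is the lowest of all libraries for 27 of the 36 genes.

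BP12-2 replicate 1 was the lowest library for 27 of the 36 genes, where it was the lowest for 19.96% of all tested genes. The median log2 deviation of the 36 genes from their mean over the 6 libraries was -0.31, 0.00 and -0.09 in BP12-2 replicates 1 to 3 and 0.13, 0.13 and 0.14 in WT replicates 1 to 3. The WT libraries were thus close to each other and all BP12-2 libraries lay below them. Without BP12-2 replicate 1, 32 of 36 genes were negative (50.1% of all genes) with a median of -0.23, 21 lay wholly below WT (19.8% of all genes) and 2 wholly above (20.2% of all genes). In the 4 libraries without the clock difference, 32 were negative (49.2% of all genes), the median was -0.21, 22 lay wholly below WT (25.2% of all genes) and 2 wholly above (26% of all genes). None of the 36 passed the edgeR quasi-likelihood test there, where 0.187% of all genes were lower. BP12-2 replicate 1 and WT replicate 3 compared with each other gave a median of -0.44.

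The small subunit factors were the class whose median varied least among libraries of a group. All 11 had negative log2 fold changes (median -0.33, range -0.59 to -0.06), 8 of them lay wholly below WT (12.2% of all genes), and 6 were lower at an unadjusted p under 0.05 (9.2% of all genes). The class median relative to the 6-library mean was -0.22, -0.16 and -0.12 in BP12-2 replicates 1 to 3 and 0.17, 0.17 and 0.18 in WT replicates 1 to 3. In the 4 libraries without the clock difference all 11 remained negative, with a median of -0.28 and 9 wholly below WT (25.2% of all genes).

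SWA1 and TOZ, both nucleolar WD-repeat proteins of the particle that processes small subunit rRNA, had the lowest p-values among the 36 genes. SWA1 (AT2G47990, SLOW WALKER1, needed for the division cycles of the female gametophyte) was at 35.3, 37.2 and 35.97 CPM in BP12-2 and at 47.0, 46.7 and 49.2 CPM in WT. Every BP12-2 value was below every WT value, and the log2 fold change was -0.40 ± 0.08 (SE, n = 3 and 3; edgeR quasi-likelihood adjusted p = 0.0888). TOZ (AT5G16750, TORMOZ, required for regular division planes in the embryo) was at 14.1, 16.7 and 14.6 CPM in BP12-2 and at 23.3, 20.2 and 24.7 CPM in WT. Here too the groups did not overlap, and the log2 fold change was -0.59 ± 0.12 (edgeR quasi-likelihood adjusted p = 0.0888). By DESeq2 and by the edgeR exact test the adjusted p was 0.0282 and 0.0114 for TOZ, and 0.0501 and 0.0505 for SWA1. Without the libraries that differ in clock transcripts the log2 fold changes were -0.36 for SWA1 and -0.48 for TOZ (edgeR quasi-likelihood adjusted p = 0.138 and 0.156). With a term for the 2 libraries that differ in clock transcripts, SWA1 and TOZ were the 2 of the 36 genes that passed (edgeR adjusted p = 0.0342 and 0.0380), where 2.59% of all genes were lower and 2.52% higher. SWA1 values carry an uncertainty, because 112 of its exon bases are also exon of SCC3 on the opposite strand, 30.7% of its exon length lies opposite an antisense RNA gene that was not counted, and strand use in counting is not stated. The exons of TOZ overlap those of no other annotated gene.

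The promoters of SWA1 and TOZ are shown here, and both hold 2 copies of the site II element, a motif known from growth-related plant promoters. They are set beside the promoter of FIB2, the 1 gene of the 36 with a positive log2 fold change, chosen after its value was seen. Each is the stretch of 250 bases before the annotated gene start in RefSeq TAIR10.1, 5′ to 3′ on the gene's strand, and capitals mark site II letters on either strand. SWA1 is read from chr2:19638679-19638928 (minus strand), where the window reaches into the neighbouring gene AT2G48000, TOZ from chr5:5509362-5509611 (minus strand) and FIB2 from chr4:13073840-13074089 (plus strand).
SWA1: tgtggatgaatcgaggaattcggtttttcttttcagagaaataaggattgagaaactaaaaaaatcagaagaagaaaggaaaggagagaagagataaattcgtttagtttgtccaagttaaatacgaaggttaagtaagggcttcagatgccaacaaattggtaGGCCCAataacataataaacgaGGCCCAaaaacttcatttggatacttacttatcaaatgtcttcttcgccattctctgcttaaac
TOZ: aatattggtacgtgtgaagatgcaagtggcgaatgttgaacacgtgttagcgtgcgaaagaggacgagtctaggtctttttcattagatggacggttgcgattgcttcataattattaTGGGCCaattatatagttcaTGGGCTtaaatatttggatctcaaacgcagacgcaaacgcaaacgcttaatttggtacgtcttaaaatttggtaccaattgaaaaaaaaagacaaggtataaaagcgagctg
FIB2: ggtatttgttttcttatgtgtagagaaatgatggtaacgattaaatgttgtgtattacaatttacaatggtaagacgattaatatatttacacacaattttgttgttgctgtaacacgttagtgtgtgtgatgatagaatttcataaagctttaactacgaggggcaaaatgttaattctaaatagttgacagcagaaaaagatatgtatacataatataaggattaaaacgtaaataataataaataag
The element was searched as TGGGCC or TGGGCT on both strands, with overlapping matches allowed. The copies begin 86 and 64 bases before the start of SWA1 and 132 and 112 bases before that of TOZ, and the FIB2 window holds 0. The other 9 genes without a match, SWA2, LSG1-2, NUC2, SWA3, NSN1, MTR4, XRN2, REIL1 and DIM1A, all had negative log2 fold changes. Holding 2 or more copies was not particular to SWA1 and TOZ, and NUG2 holds 5. Of the 36 genes, 26 (72.2%) have at least 1 match in this window, against 19.2% of 27437 protein-coding genes and 22% of the 19080 that were tested. The share was 81.8% for small subunit and 69.2% for large subunit factors. The telo box, searched as AAACCCTA on both strands, was found in 8 of the 36 (22.2%), against 4.49% of all and 3.46% of tested protein-coding genes. Both motifs were found in 7 of the 36 (19.4%), against 1.36% of all and 1.32% of tested protein-coding genes. As for SWA1, the windows of several other members reach into a neighbouring gene. A match is a description of the letters and not a measured binding site.

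Other small subunit factors had differences of similar size. RH57 (AT3G09720), a DEAD-box helicase whose yeast counterpart releases a snoRNA from the precursor, was at 3.89, 3.76 and 4.13 CPM in BP12-2 and at 6.18, 5.72 and 4.999 CPM in WT. NOB1 (AT5G41190), the endonuclease that makes the last cut of the small subunit rRNA, was at 41.2, 42.3 and 43.9 CPM in BP12-2 and at 49.98, 57.3 and 54.9 CPM in WT. YAO (AT4G05410), a WD-repeat protein of the U3 particle, was at 14.8, 20.5 and 18.3 CPM in BP12-2 and at 21.4, 23.2 and 22.6 CPM in WT. For each of these 3 genes every BP12-2 library lay below every WT library. ENP1 (AT1G31660), a bystin-like protein of the maturing small subunit, was at 8.48, 8.72 and 9.31 CPM in BP12-2 and at 10.6, 11.4 and 10.48 CPM in WT, again without overlap. The log2 fold changes were -0.50 ± 0.16 for RH57, -0.35 ± 0.09 for NOB1, -0.33 ± 0.13 for YAO and -0.29 ± 0.12 for ENP1 (SE; edgeR quasi-likelihood adjusted p from 0.120 to 0.256). That of YAO was -0.22 without BP12-2 replicate 1.

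RID2 (AT5G57280), a methyltransferase-like protein of precursor processing known from root initiation, averaged 2.46 ± 0.774 CPM in BP12-2 and 3.40 ± 0.398 CPM in WT (SD, n = 3). NOF1 (AT1G17690), a U3-associated nucleolar factor, averaged 3.94 ± 0.594 CPM in BP12-2 and 5.03 ± 0.394 CPM in WT. Neither gene had overlap between groups. BP12-2 replicate 1 was the lowest library for RID2, at 1.60 CPM, and the log2 fold change of -0.45 was -0.22 without it and -0.10 in the 4 libraries without the clock difference. DIM1A (AT2G47420), the dimethyltransferase of small subunit rRNA and the most abundant member of its class, was at 45.2, 54.2 and 49.3 CPM in BP12-2 and at 56.9, 50.7 and 47.9 CPM in WT, with overlap. SWA3 (AT1G16280), a DEAD-box helicase needed for female gametophytes, averaged 8.63 ± 1.08 CPM in BP12-2 and 9.44 ± 1.28 CPM in WT. AT5G60990, a helicase whose yeast counterpart acts on small subunit rRNA, averaged 8.53 ± 1.37 CPM in BP12-2 and 8.94 ± 0.295 CPM in WT. These last 3 genes had log2 fold changes from -0.14 to -0.06 that were smaller than their SE. The exons of SWA3 overlap those of AT1G16270 on the opposite strand over 18.4% of their length.

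The large subunit factors were similar to this in their median but differed more between BP12-2 libraries. All 13 had negative log2 fold changes (median -0.28, range -0.63 to -0.01), 8 lay wholly below WT (12.2% of all genes) and 7 were lower at an unadjusted p under 0.05 (9.2% of all genes). The class median was -0.33, 0.04 and -0.11 in BP12-2 replicates 1 to 3 relative to the 6-library mean, and 0.13, 0.13 and 0.14 in WT replicates 1 to 3. BP12-2 replicate 2 was therefore close to the overall mean. In the 4 libraries without the clock difference 11 of 13 were negative, with a median of -0.24. There 8 lay wholly below WT (25.2% of all genes) and 1 wholly above (26% of all genes).

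AT1G52930, which encodes a Brix domain protein of ribosomal RNA processing, had the largest log2 fold change in size of the 36 genes. It was at 4.69, 5.72 and 4.60 CPM in BP12-2 and at 6.83, 7.88 and 8.13 CPM in WT, without overlap (log2 fold change -0.63 ± 0.16, SE; edgeR quasi-likelihood adjusted p = 0.113). The edgeR exact test called it (adjusted p = 0.0444) and DESeq2 did not (adjusted p = 0.134). AT2G40430, which encodes a Nop53 protein, in yeast a recruiter of the exosome to the large subunit precursor, was at 4.69, 5.27 and 4.48 CPM in BP12-2 and at 6.57, 6.84 and 6.26 CPM in WT. Its exons overlap those of AT2G40420 on the opposite strand over 14.9% of their length. SWA2 (AT1G72440), a homolog of the yeast large subunit export factor NOC1, was at 44.7, 54.0 and 52.1 CPM in BP12-2 and at 56.7, 64.6 and 73.8 CPM in WT. RH29 (AT1G77030), a putative DEAD-box helicase, was at 25.9, 31.0 and 30.0 CPM in BP12-2 and at 38.6, 34.9 and 37.5 CPM in WT. In these genes no BP12-2 value reached the lowest WT value. The log2 fold change of SWA2, -0.37 ± 0.13 (SE), was -0.20 in the 4 libraries without the clock difference.

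PES, BOP1 and WDR12 form the PeBoW complex of large subunit rRNA processing, and all 3 had negative log2 fold changes. BOP1 (AT2G40360) was at 37.5, 48.4 and 41.1 CPM in BP12-2 and at 51.5, 54.3 and 52.3 CPM in WT, without overlap (log2 fold change -0.32 ± 0.11, SE). PES (AT5G14520) averaged 17.3 ± 3.57 CPM in BP12-2 and 18.3 ± 2.43 CPM in WT (SD, n = 3), with overlap and a log2 fold change of -0.08 ± 0.18, which was 0.10 in the 4 libraries without the clock difference. WDR12 (AT5G15550) averaged 1.71 ± 0.644 CPM in BP12-2 and 2.53 ± 0.299 CPM in WT, also with overlap. Its log2 fold change of -0.60 ± 0.30 rested on few counts. It was -0.35 without BP12-2 replicate 1 and -0.33 in those 4 libraries. The difference between the 3 partners was not tested.

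Of the large subunit GTPases, NUG2 and LSG1-2 had no overlap between groups and NSN1 did. NUG2 (AT1G52980), a GTPase of precursor maturation and the most abundant large subunit factor, was at 53.6, 66.2 and 63.5 CPM in BP12-2 and at 80.2, 71.3 and 70.3 CPM in WT. LSG1-2 (AT1G08410), the counterpart of a yeast GTPase that releases an export factor in the cytoplasm, averaged 23.1 ± 3.24 CPM in BP12-2 and 27.5 ± 0.205 CPM in WT (SD, n = 3). NSN1 (AT3G07050), the nucleostemin-like GTPase needed for flower meristem identity, averaged 31.3 ± 4.87 CPM in BP12-2 and 35.9 ± 0.601 CPM in WT. The log2 fold changes were -0.28 ± 0.11 for NUG2, -0.26 ± 0.12 for LSG1-2 and -0.20 ± 0.12 for NSN1 (SE; edgeR quasi-likelihood adjusted p from 0.251 to 0.431). That of NSN1 was -0.085 without BP12-2 replicate 1 and -0.07 in the 4 libraries without the clock difference, and that of LSG1-2 was -0.16 without BP12-2 replicate 3. NSN1 shares 9.67% of its exon length with the neighbouring gene RPM1 on the same strand.

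**Figure D2:**
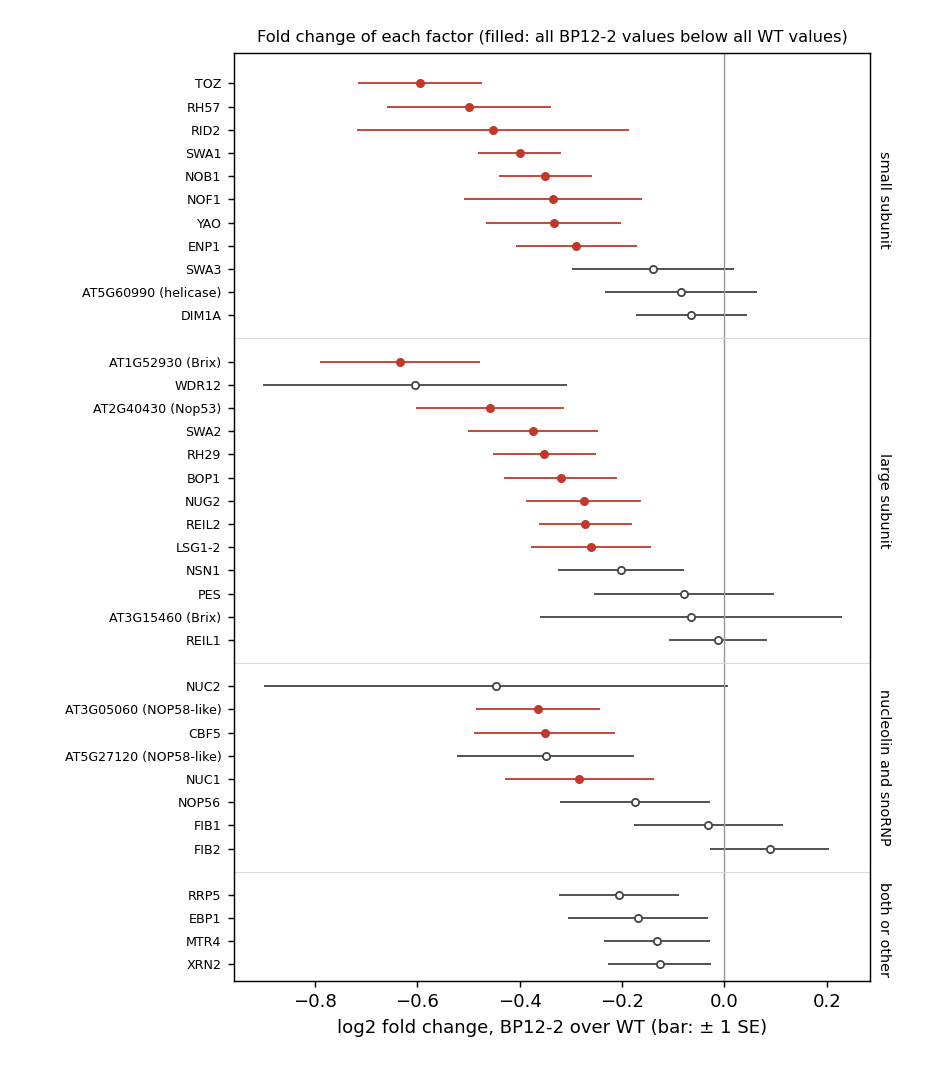
Log2 fold change of each gene, BP12-2 over WT, with bars of 1 SE (x axis), by role class (y axis); filled red points are the 19 genes whose 3 BP12-2 values all lie below the 3 WT values. The points run from -0.63 to 0.09, and FIB2 is the single point above 0.

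The small and large subunit classes differed from each other by less than the spread between libraries. The small subunit median minus the large subunit median was -0.06 on the log2 fold change scale, and the spread of the per-library difference within groups was 0.11 (SD, pooled over both groups). Per library this difference was 0.12, -0.20 and -0.01 in BP12-2 replicates 1 to 3 and 0.04, 0.05 and 0.04 in WT replicates 1 to 3. The BP12-2 libraries thus lay on both sides of WT. Summed over members, small subunit factors stood at 186 to 207 CPM in BP12-2 and 241 to 243 CPM in WT, and large subunit factors at 308 to 371 CPM in BP12-2 and 406 to 415 CPM in WT, neither with overlap.

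**Figure D3:**
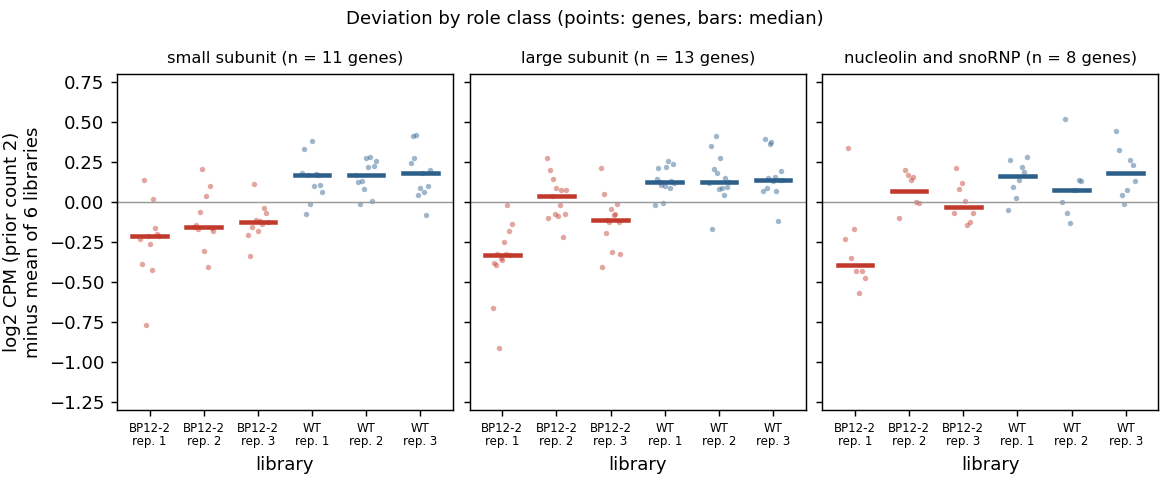
Deviation of log2 CPM from the mean of the 6 libraries (y axis) by library (x axis) for the small subunit, large subunit, and nucleolin and snoRNP classes; points are genes and bars are class medians. The small subunit bars lie between -0.22 and -0.12 in BP12-2 and between 0.17 and 0.18 in WT, while the large subunit bar of BP12-2 replicate 2 is at 0.04.

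Among nucleolins and core snoRNP proteins, 7 of 8 genes were negative (median -0.32, range -0.45 to 0.09), 3 lay wholly below WT (12.2% of all genes), and 2 were lower at an unadjusted p under 0.05 (9.2% of all genes). CBF5 (AT3G57150), the pseudouridine synthase of box H/ACA snoRNPs and the most abundant of all 36 genes, was at 191, 264 and 254 CPM in BP12-2 and at 323, 291 and 291 CPM in WT (log2 fold change -0.35 ± 0.14, SE; edgeR quasi-likelihood adjusted p = 0.238), and its log2 fold change was -0.22 without BP12-2 replicate 1. NOP56 (AT1G56110), a core protein of box C/D snoRNPs, averaged 75.5 ± 14.9 CPM in BP12-2 and 85.2 ± 2.29 CPM in WT (SD, n = 3), with BP12-2 replicate 1 at 59.0 CPM and the other BP12-2 libraries at 87.7 and 79.9 CPM. Its log2 fold change was -0.17 ± 0.15 (SE), and -0.026 without BP12-2 replicate 1. The class median relative to the 6-library mean was -0.39, 0.07 and -0.03 in BP12-2 replicates 1 to 3 and 0.17, 0.08 and 0.18 in WT replicates 1 to 3. In the 4 libraries without the clock difference the class median log2 fold change was -0.10, with 6 of 8 negative.

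Fibrillarin, the rRNA 2′-O-methyltransferase of box C/D snoRNPs, is encoded by FIB1 and FIB2, and neither differed by more than its SE. FIB1 (AT5G52470) was at 36.1, 53.0 and 48.9 CPM in BP12-2 and at 49.3, 43.9 and 47.6 CPM in WT. FIB2 (AT4G25630) was at 22.1, 28.0 and 27.0 CPM in BP12-2 and at 25.2, 22.7 and 24.6 CPM in WT. The groups overlapped in both, with log2 fold changes of -0.03 ± 0.15 and 0.09 ± 0.12 (SE). Per kilobase of exon (RPKM), FIB1 made up 63.3% ± 1.72 of the pair in BP12-2 and 65.3% ± 0.107 in WT (SD, n = 3).

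Transcripts for nucleolin, a protein that binds rRNA genes and precursor rRNA, came almost wholly from NUC1. NUC1 (AT1G48920) was at 72.9, 80.0 and 81.5 CPM in BP12-2 and at 82.8, 85.5 and 117 CPM in WT. The groups did not overlap, but WT replicate 3 was far above the other WT libraries, and the log2 fold change of -0.28 ± 0.15 (SE) was -0.11 without WT replicate 3 and -0.06 in the 4 libraries without the clock difference. NUC2 (AT3G18610) was at 1.10, 0.150 and 0.989 CPM in BP12-2 and at 1.03, 1.26 and 1.08 CPM in WT, where the lowest value stood for 1 count. Its log2 fold change of -0.45 ± 0.45 (SE) was -0.13 without that library. By RPKM, NUC1 made up 99.1% of the pair in BP12-2 and 98.9% in WT.

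Of the NOP58-like genes, which encode the partner of NOP56 in box C/D snoRNPs, AT3G05060 was at 41.0, 55.4 and 50.9 CPM in BP12-2 and at 63.2, 61.1 and 65.0 CPM in WT, without overlap. AT5G27120 was at 33.2, 54.9 and 44.7 CPM in BP12-2 and at 57.4, 52.0 and 59.3 CPM in WT, with overlap. Their log2 fold changes were -0.36 ± 0.12 for AT3G05060 and -0.35 ± 0.17 for AT5G27120 (SE). They were -0.23 and -0.14 in the 4 libraries without the clock difference, and that of AT5G27120 was -0.18 without BP12-2 replicate 1 and -0.52 without BP12-2 replicate 2. AT5G27120 made up 47.0% of the pair by RPKM in BP12-2 and 47.0% in WT. AT5G27120 shares 0.65% of its 50-base words with AT5G27140, a gene whose exons do not overlap its own. The other 35 genes share 0 with genes that they do not overlap.

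The Brix and REI1-like pairs each held 1 gene whose groups did not overlap and 1 whose groups did. Of the Brix domain genes, AT1G52930 had the values given above, while its paralog AT3G15460 was at 1.10, 2.26 and 2.15 CPM in BP12-2 and at 1.80, 2.01 and 1.93 CPM in WT, with overlap. REIL1 (AT4G31420) and REIL2 (AT2G24500) encode zinc finger proteins like yeast Rei1, which acts in cytoplasmic maturation of the large subunit. REIL2 was at 35.8, 34.9 and 40.4 CPM in BP12-2 and at 44.6, 45.1 and 44.8 CPM in WT, without overlap, and REIL1 was at 36.5, 39.0 and 35.1 CPM in BP12-2 and at 39.3, 38.1 and 34.1 CPM in WT, with overlap. The log2 fold changes were -0.27 ± 0.09 for REIL2 and -0.01 ± 0.10 for REIL1 (SE). By RPKM REIL1 made up 53.5% ± 3.15 of its pair in BP12-2 and 48.9% ± 1.88 in WT (SD, n = 3). AT3G15460 made up, on the same scale, 26.9% ± 6.77 of its pair in BP12-2 and 20.6% ± 0.899 in WT. In the REI1-like pair the BP12-2 and WT shares overlapped, from 50.1% to 56.3% in BP12-2 and from 46.8% to 50.4% in WT. The difference between the paralogs of a pair was not tested. REIL2 shares 8.89% of its exon length with RPA2 on the same strand. The exons of AT3G15460 overlap those of AT3G15450 on the opposite strand over 3.37% of their length. Over all libraries AT3G15450 had 9629 counts and AT3G15460 had 136.

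**Figure D4:**
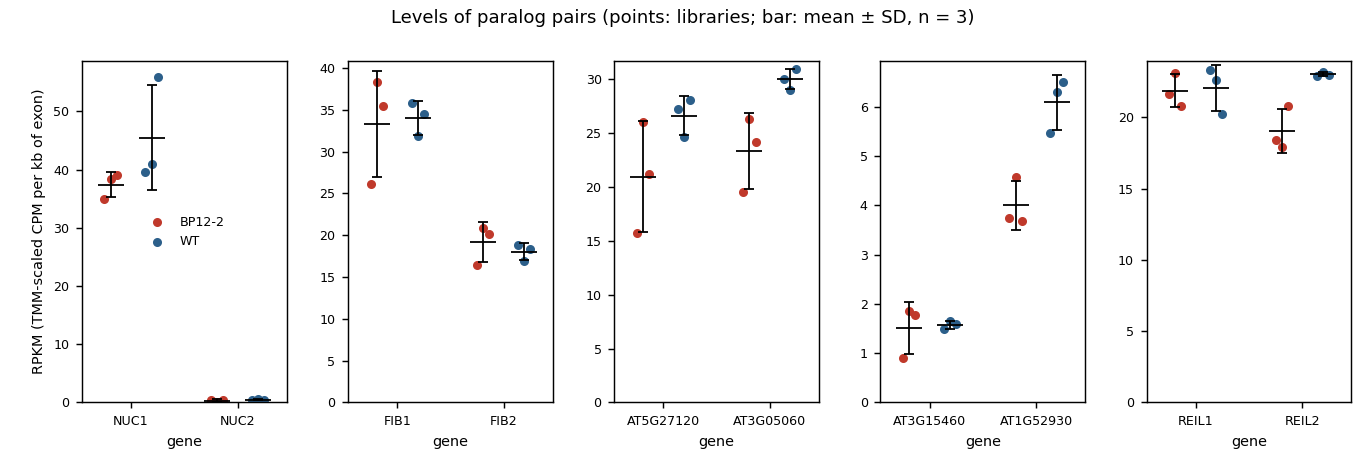
RPKM (y axis) of 5 paralog pairs (x axis), with 1 point per library, BP12-2 in red left of WT in blue, and bars for the mean ± SD (n = 3). NUC2 is near 0 beside NUC1, and AT1G52930 is at 3.68 to 4.57 RPKM in BP12-2 and 5.46 to 6.505 RPKM in WT.

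The 4 genes that act on both branches or elsewhere had the smallest median difference of the 4 classes. Their log2 fold changes ran from -0.21 to -0.13 (median -0.15), and 0 of 4 lay wholly below WT (12.2% of all genes). The median was -0.07 both without BP12-2 replicate 1 and in the 4 libraries without the clock difference, where 1 of 4 lay wholly below WT (25.2% of all genes). XRN2 (AT5G42540), an exoribonuclease that trims precursor rRNA and the most abundant of these genes, was at 36.7, 44.2 and 37.3 CPM in BP12-2 and at 43.9, 42.1 and 42.8 CPM in WT. MTR4 (AT1G59760), the exosome helicase, averaged 33.4 ± 3.66 CPM in BP12-2 and 36.6 ± 1.18 CPM in WT (SD, n = 3). RRP5 (AT3G11964), which in yeast is needed for both subunits, was at 18.4, 21.7 and 22.99 CPM in BP12-2 and at 24.3, 22.5 and 25.9 CPM in WT. EBP1 (AT3G51800), a growth regulator related to human EBP1, averaged 29.8 ± 4.56 CPM in BP12-2 and 33.5 ± 3.29 CPM in WT. In all 4 the groups overlapped, and BP12-2 replicate 1 was the lowest library.

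Levels per exon length differed widely among the 36 genes. By mean RPKM the highest were CBF5, at 105 in BP12-2 and 133 in WT, NOP56, at 39.8 in BP12-2 and 44.9 in WT, and NUC1, at 37.4 in BP12-2 and 45.5 in WT. The lowest were NUC2, at 0.331 in BP12-2 and 0.500 in WT, and WDR12, at 0.895 in BP12-2 and 1.33 in WT.

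Other genes whose annotated product names a step of ribosome biogenesis or the nucleolus were less uniform. Of 69 such protein-coding genes 8 had 0 counts and 59 were tested, and 37 of these had negative log2 fold changes (62.7%; median -0.11). None of the 59 passed the edgeR quasi-likelihood test, 12 were lower and 5 higher at an unadjusted p under 0.05 (9.2% and 9.03% of all genes), and 16 lay wholly below and 3 wholly above WT (12.2% and 12.1% of all genes). Without the libraries that differ in clock transcripts 33 of 59 were negative (55.9%), with a median of -0.08. DESeq2 called AT3G23620 lower and AT2G36420 higher, a gene named after its value was seen, and the edgeR exact test called these and AT5G08600, which was lower. These tools called 1.73% and 2.25% of all genes lower and 1.46% and 1.98% higher. The lowest fold changes among those under 0.05 were those of AT5G08600, a U3 ribonucleoprotein family gene, at 5.15 ± 1.18 CPM in BP12-2 and 8.24 ± 0.783 CPM in WT (SD, n = 3), and AT3G23620, a Brix domain gene, at 15.7 ± 0.782 CPM in BP12-2 and 22.6 ± 1.61 CPM in WT. AT2G43110, a subunit of the U3-containing precursor particle, was at 5.92 ± 0.752 CPM in BP12-2 and 8.49 ± 0.242 CPM in WT, and AT3G57780, annotated as nucleolar-like, at 11.01 ± 2.07 CPM in BP12-2 and 15.3 ± 2.24 CPM in WT. The highest were AT2G40020, a nucleolar histone methyltransferase-related gene, at 10.07 ± 0.650 CPM in BP12-2 and 6.70 ± 2.58 CPM in WT, and AT5G61330, an rRNA processing-like gene, at 8.02 ± 1.47 CPM in BP12-2 and 5.07 ± 0.774 CPM in WT. Such product names also cover genes with no known part in ribosome assembly.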

How the data were processed

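RNA-seq libraries of BP12-2 and WT seedlings, 3 each, were grouped by their titles. Per the labels' design text and the submitters' processing notes, the authors aligned paired-end reads with Bowtie to TAIR9, counted reads per gene with HTSeq and deposited raw counts; versions, counting mode and strand use are not stated. Every pair of libraries differed beyond counting noise (smallest chi-square per degree of freedom 10.9). Genes were kept by filterByExpr of edgeR 4.0.16 (count minimum 10, total minimum 15; 19436 of 32313) and scaled by TMM (factors 0.972 to 1.021). Groups were compared by edgeR's quasi-likelihood F test (2-sided, genotype only; Benjamini-Hochberg over all genes, threshold 0.05), in R 4.3.3; an SE is the log2 fold change over the root of F. The test was also run on simulated counts, whose outcome is not reported here and is not used as support. Library medians use log2 CPM with a prior count of 2, and RPKM the union of annotated exons. Names, exons and promoters came from TAIR10.1, which holds 31786 of the gene codes and is not the authors' build; no coordinates were converted.

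Members, role classes, marker lists (leaf, root, dividing cells, flower and seed, clock), tests and alternatives were chosen with earlier results of these data known, so no p is given over a list. All 36 members are named; values in every library are given for members under an unadjusted p of 0.05, the most abundant member of each class and 5 paralog pairs. Other ribosome biogenesis genes were found by words in their annotated product. Alternatives were other scalings and filters, DESeq2 1.42.0, the edgeR exact test, limma 3.58.1 (voom), other thresholds, each library left out, a replicate block, a term for the libraries with another clock state, subsets without them, and a correction by GC and by exon length (20 bins each), added after seeing the data. Same-numbered replicates are not said to share a batch.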

Additional observations from a re-analysis of the deposited data

How the results depend on the processing

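The count of genes past the threshold, 13, was 56 with no filter, 22 by limma voom, 620 by DESeq2, 821 by the edgeR exact test, 992 with a term for the marked libraries (BP12-2 replicate 1 and WT replicate 3), 38 in the 4 libraries not marked, 1 at an adjusted p of 0.01, 463 at 0.1, and 0 to 56 with 1 library left out; it was highest without WT replicate 1, and at 9, 2 and 1 when leaving out BP12-2 replicate 1, WT replicate 3 and either of BP12-2 replicate 2 or WT replicate 2. Of the 36 factors, 0 in the analysis as reported, 1 passed by DESeq2, 2 by the exact test, 2 with the term for the marked libraries and 2 at an adjusted p of 0.1. With the replicate block, where the number is a name only (correlations of same-numbered residuals -0.31, 0.06 and -0.30), 0 genes and 0 factors passed.

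The small subunit median, -0.33, was -0.28 in the 4 libraries not marked and, leaving out single libraries, lowest and highest at -0.36 and -0.26 (without BP12-2 replicate 1). Between the 2 marked libraries alone the median of all 36 factors was -0.44, the large subunit median -0.48 and the small minus large difference 0.13, so the sign of that difference, -0.06 over all 6 libraries, turned; leaving out BP12-2 replicate 2 it was 0.016. Of the 36 factors 29 kept their direction in every alternative run for them (19, or 18 for factors under a minimum of 5 CPM). The other 7 turned. With 1 library left out in turn, FIB1 ran from -0.14 to 0.11 (0.11 without BP12-2 replicate 1, 0.00253 without WT replicate 1), PES from -0.20 to 0.074 (positive without BP12-2 replicate 1 or WT replicate 1), AT3G15460 from -0.26 to 0.19 (without BP12-2 replicate 1), REIL1 from -0.072 to 0.027 (positive without BP12-2 replicate 3, WT replicate 1 or WT replicate 2) and DIM1A from -0.13 to 0.00485 (without WT replicate 1). In the 4 libraries not marked FIB1 was 0.13, PES 0.10 and AT3G15460 0.19. Between the marked libraries FIB2 was -0.16, NUC2 0.016 and REIL1 0.10. Correcting for GC and length gave -0.00440 for FIB2 and 0.00615 for REIL1, and upper-quartile factors gave 0.00703 for REIL1. Apart from the construction of each setting, the cause was not tested. Factors at a few CPM (NUC2, WDR12, AT3G15460, RID2) rest on few counts, which limits their precision.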
